A study of Mus musculus with 4 samples.

Results

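A set of 9 genes of the S100, annexin and beta thymosin families was followed in undifferentiated spermatogonia (A_undiff) of mice that had received busulfan (BU) and of untreated controls (CTRL). The members were *S100a11*, *S100a6*, *S100a10*, *S100a4*, *Anxa1*, *Anxa2*, *Anxa5*, *Tmsb4x* and *Tmsb10*, matched by gene symbol, and they are 9 of the 27514 genes listed in all libraries. They had been picked because earlier results on the same libraries pointed to higher levels after BU, so their BU against CTRL values are given as a description. The label "raised after busulfan" held for *S100a11*, *S100a6* and *S100a10* in both experiments, in germ cells above and below a *Gfra1* threshold. In cells with progenitor markers the shares of cells with these transcripts were not separated from free RNA in the droplets. Below the *Gfra1* threshold the intervals of these shares lay above those of spermatid cells in experiment 2. In experiment 1 they overlapped, where CTRL 1 and BU 1 had 41 and 9 spermatid cells. *Tmsb10* was higher in BU within each experiment. Over cells without somatic or spermatid markers *Anxa5* had BU to CTRL ratios of 1.00 and 1.07, and those of *Tmsb4x* and *Anxa2* varied between the 2 experiments, while *Anxa1* lay mostly in cells with somatic markers, and *S100a4* was near 0.

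The A_undiff pool contains stem cells (SSCs) as well as progenitors derived from them, and *Gfra1*, a receptor subunit for the niche factor GDNF, marks the stem cell end of the pool. Adult C57BL/6J wild-type mice of 6 to 8 weeks were left untreated or given a single dose of 10 mg/kg busulfan. Busulfan is an alkylating agent that kills both A_undiff and differentiating spermatogonia, and a low dose spares some A_undiff. Testes were taken at day 10 (D10). Cells positive for E-cadherin and CD49f and negative for c-KIT were sorted, pooled from 3 mice, and 1 CTRL and 1 BU droplet library came from each of 2 experiments, named here by group and experiment number. Individual mice cannot be separated within a pool, and all comparisons of BU with CTRL rest on n = 2 libraries per group.

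Most S100 proteins, though not S100A10, are small calcium sensors with EF-hand motifs that change shape when calcium binds and then dock onto target proteins. Annexins bind acidic membrane lipids in the presence of calcium, and several S100 proteins pair with an annexin, the complex of S100A10 with annexin A2 being the best known. Beta thymosins are short peptides that hold actin monomers and so set how much actin is free to form filaments.

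The libraries held between 21136369 and 53579969 unique molecular identifiers (UMIs), with 1120 to 3101 cells per library that had over 1000 genes and under 20% mitochondrial UMIs, 7493 in all. Libraries of experiment 2 were deeper, with medians of 30931 and 34177 UMIs per passing cell against 8066 and 9858 in experiment 1. CTRL 2 and BU 2 shared 677 cell barcodes, and 20.1% and 41.4% of their passing cells carried a barcode that is also listed in another library. Those cells held 29.4% and 65.45% of the UMIs of passing cells, and 37.5% and 60.8% of the UMIs of the members. All 8 spermatogonial markers were detected in passing cells of each library, at a summed level of 1579 to 2478 CPM. Here CPM are counts scaled to the UMIs of the cells summed, so those of a cell class are scaled to that class. Cells were called somatic-marked when at least 3 of 25 somatic genes gave at least 0.1% of their UMIs (22, 28, 34 and 58 cells in CTRL 1, BU 1, CTRL 2 and BU 2), and spermatid-marked when 5 spermatid genes gave at least 2%. In the remaining unmarked cells the somatic genes summed to 80.0, 45.4, 72.5 and 53.7 CPM, against 106.9, 83.5, 560.8 and 256.4 CPM in all passing cells. Gfra1+ cells were those above the threshold of 2 for the natural log of 1 plus 100000 times the share of *Gfra1* UMIs. They made up 18.9%, 43.1%, 19.1% and 41.9% of passing cells in the same order of libraries. Deeper cells needed more *Gfra1* UMIs to pass this threshold. Cells with any *Gfra1* UMI were 19.3%, 45.6%, 35.4% and 62.2%, so Gfra1-negative cells of experiment 2 included many with a *Gfra1* UMI.

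The 3 S100 genes that stood higher after BU lie in the S100 cluster of chromosome 3 (GRCm38, GENCODE annotation), where 14 S100 genes are listed. *S100a6* spans 90612882 to 90624181 and *S100a11* spans 93520488 to 93526287, which places them 2.90 Mb apart, and *S100a10* (93555080 to 93564643) begins 28.8 kb beyond *S100a11*. *S100a4* (90603771 to 90606045) ends 6.84 kb before *S100a6*. The 250 bases before the annotated start sites of *S100a11* (chr3:93520246-93520495) and *S100a6* (chr3:90612644-90612893), both on the plus strand, are printed because these genes moved together. Sequences are those of RefSeq on GRCm38.p6, and capitals mark matches to the AP-1 motif TGANTCA, to the CArG box, to the GC box GGGCGG or to the TATA motif spelled TATAAA, on either strand.
S100a11: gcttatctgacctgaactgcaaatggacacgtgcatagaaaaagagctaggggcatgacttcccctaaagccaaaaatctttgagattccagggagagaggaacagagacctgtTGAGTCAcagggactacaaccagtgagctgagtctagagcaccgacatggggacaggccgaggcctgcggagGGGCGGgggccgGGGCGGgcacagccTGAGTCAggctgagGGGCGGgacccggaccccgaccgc
S100a6: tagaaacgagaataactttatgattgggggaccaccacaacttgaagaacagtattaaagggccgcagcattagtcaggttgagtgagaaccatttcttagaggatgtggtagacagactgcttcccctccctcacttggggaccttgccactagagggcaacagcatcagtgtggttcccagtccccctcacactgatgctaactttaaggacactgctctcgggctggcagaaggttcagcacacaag

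The *S100a11* window held 2 AP-1 matches and 3 GC boxes, and the *S100a6* window held neither. Over the 300-base windows of all 32851 promoters in the table (250 bases before and 50 after the start), 7.81% held an AP-1 match, 35.7% a GC box, 13.6% TATAAA, 72.3% an E-box (CANNTG) and 1.63% a CArG box. Windows were available for 8 members, with none for *S100a10*. Among the others, *Anxa2* held 1 AP-1 match, 3 GC boxes and 1 TATAAA, *Anxa1* and *S100a4* each held 1 TATAAA, and *Anxa5* held 1 CArG box. The 3 windows of *Tmsb10* held 2, 2 and 1 GC boxes and that of *Tmsb4x* held 1. No window of *S100a11* or *S100a6* held TATAAA or a CArG box, and each had 2 E-boxes. These matches describe letters in the sequence and do not show binding.

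*S100a11*, which encodes an annexin A1 partner, stood higher in both BU libraries than in both CTRL libraries in each class given here. CTRL 1 and CTRL 2 gave 11.9 and 11.4 CPM over unmarked cells, whereas BU 1 reached 73.7 CPM and BU 2 reached 85.9 CPM. Means were 11.6 ± 0.37 in CTRL and 79.8 ± 8.59 CPM in BU (SD, n = 2), and BU exceeded its CTRL partner 6.19-fold and 7.55-fold. The groups did not overlap, but the members were chosen for higher levels after BU. The share of all genes without overlap was not counted, so gaps between groups are description, here and below. In unmarked Gfra1+ cells the 4 values were 19.7, 30.3, 94.4 and 119.1 CPM in the same order, a ratio of 4.79 and 3.94. In unmarked Gfra1-negative cells they were 10.2, 7.02, 57.0 and 54.9 CPM, a ratio of 5.60 and 7.82. A pseudogene, *S100a11-ps* on chromosome 12, is annotated but not listed in the files, so reads shared with it cannot be told apart.

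*S100a6* (calcyclin) followed the same order. Unmarked cells of the CTRL libraries gave 9.73 and 10.5 CPM, and those of BU 1 and BU 2 gave 44.1 and 60.9 CPM. The groups were apart, at 10.1 ± 0.53 and 52.5 ± 11.9 CPM (SD, n = 2), with ratios of 4.53 and 5.80. Gfra1+ cells gave 13.7 and 22.5 CPM in CTRL and 59.95 and 84.8 CPM in BU. Gfra1-negative cells gave 8.85 and 7.71 CPM in CTRL and 31.2 and 38.6 CPM in BU.

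*S100a10* (p11), the annexin A2 partner, showed a smaller ratio. The CTRL libraries held 8.995 and 7.86 CPM over unmarked cells and the BU libraries 25.4 and 33.8 CPM, with means of 8.43 ± 0.80 and 29.6 ± 5.93 (SD, n = 2). Ratios within experiments were 2.83 and 4.30, and again no BU library reached down to a CTRL library. In Gfra1+ cells *S100a10* went from 10.7 and 12.5 CPM in CTRL to 31.3 and 44.5 CPM in BU. In Gfra1-negative cells it went from 8.62 and 6.80 to 20.7 and 23.9 CPM.

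**Figure D1:**
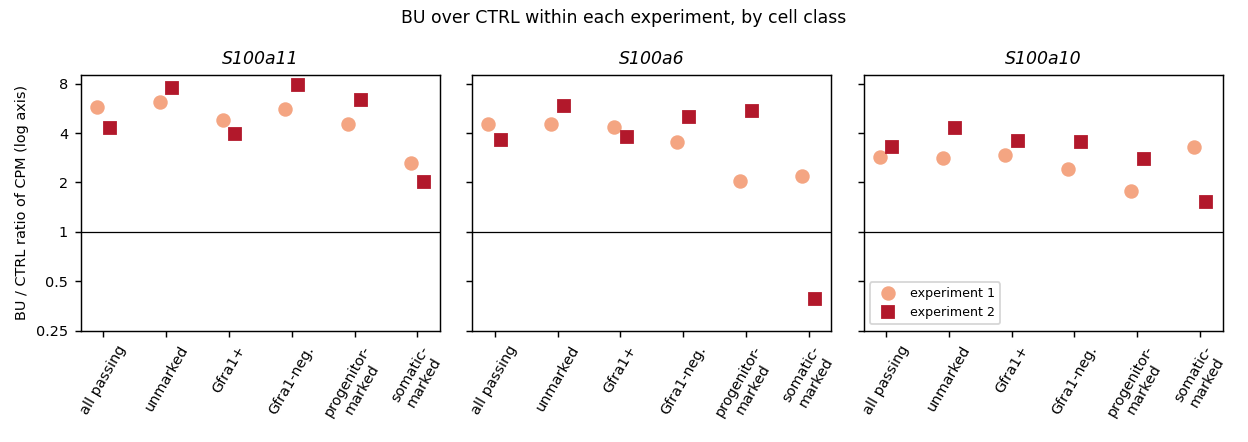
Ratio of BU to CTRL CPM within each experiment for *S100a11*, *S100a6* and *S100a10* (y axis, log scale) by cell class (x axis). The Gfra1+, Gfra1-negative and progenitor-marked classes exclude marked cells, circles are experiment 1 and squares experiment 2, and all ratios lie above 1 except that of *S100a6* in somatic-marked cells of experiment 2.

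*S100a4*, which lies beside *S100a6* and encodes a protein linked to cell movement, had 0 UMIs in either CTRL library, 2 in BU 1 and 8 in BU 2. A count of 0 allowed levels of up to 0.113 CPM in CTRL 1 and 0.0782 CPM in CTRL 2. All 8 UMIs of BU 2 were in Gfra1+ cells. At this depth no statement on a difference was possible, and the gene was the member that did not pass the filter on low counts.

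The BU against CTRL contrast chose the members, so their p-values in it, here and below, are no independent evidence. Calls of members are set beside those of all genes. In edgeR's quasi-likelihood test on UMIs summed over all passing cells, with Benjamini-Hochberg adjustment and condition as the only term, 0 of 17354 genes were called (0%), with 926 at an unadjusted p under 0.05, and DESeq2 called 119. With the experiment as a replicate block, 0.64% of genes were called higher in BU, among them 3 of the 8 members tested. These were *S100a11* (log2 difference 2.34, SE 0.24, adjusted p = 0.020), *S100a6* (2.05, SE 0.25, adjusted p = 0.029) and *S100a10* (1.65, SE 0.26, adjusted p = 0.038). In Gfra1+ cells the block called 0.044% of genes higher, including *S100a6* (2.12, SE 0.23, adjusted p = 0.020), while *S100a10* (1.58, SE 0.24) had an adjusted p of 0.051 and *S100a11* (1.51, SE 0.28) one of 0.069. In Gfra1-negative cells it called 0% of genes, with 2362 at an unadjusted p under 0.05, and DESeq2 without the block called 59.

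The same fits without marked cells, or without cells whose barcode another library shares, called 0 genes in each class with the block. For all unmarked cells the adjusted p was 0.088 for *S100a11*, 0.088 for *S100a6* and 0.10 for *S100a10*, with log2 differences of 2.72, 2.30 and 1.75 that were larger than with marked cells included. For unmarked cells without shared barcodes, Gfra1+ levels of *S100a11* were 19.8 and 34.0 CPM in CTRL and 94.2 and 130.2 CPM in BU.

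The share of Gfra1+ cells moved with BU as well. When each BU library was given the Gfra1+ share of UMIs of its CTRL partner (18.1% and 18.7% in place of 44.7% and 48.2% of unmarked UMIs), the ratio for *S100a11* was 5.36 and 5.88 in place of 6.19 and 7.55. For *S100a6* it was 3.74 and 4.51 in place of 4.53 and 5.80, and for *S100a10* it was 2.52 and 3.53 in place of 2.83 and 4.30. Only the Gfra1+ share was held, so these ratios are not adjusted for the make-up of Gfra1-negative cells. Progenitor-marked cells (defined below) were 42.6% and 39.2% of passing cells in CTRL and 15.7% and 12.3% in BU. Unmarked cells with a *Kit* level above 2 were 1.16% and 2.86% in CTRL and 15.8% and 12.3% in BU.

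The annexins and *Tmsb4x* had smaller or less regular BU to CTRL ratios than the 3 S100 genes in unmarked cells, a difference between genes that was not tested. Annexin A1 is best known as an anti-inflammatory protein of leukocytes and epithelia. The CTRL libraries had 8 and 84 UMIs of *Anxa1* and the BU libraries 12 and 270, and somatic-marked cells held 50%, 92.9%, 100% and 84.1% of them in that order. In unmarked Gfra1+ cells it had 0 UMIs in CTRL 1 and BU 1, 1 in CTRL 2 and 2 in BU 2. Over all unmarked cells its ratio was 0 in experiment 1 and 4.87 in experiment 2. Few UMIs lay there, since marked cells of CTRL 1, BU 1, CTRL 2 and BU 2 held 50%, 100%, 92.9% and 84.4%. *Anxa1* passed the filter on low counts in all passing cells and not in unmarked cells.

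*Anxa5*, whose protein binds phosphatidylserine on exposed membranes, had 4 and 9.80 CPM in CTRL and 5.29 and 14.6 CPM in BU over all passing cells. The groups overlapped, and 26.4%, 44.1%, 76.6% and 82.7% of its UMIs came from somatic-marked cells of CTRL 1, BU 1, CTRL 2 and BU 2. In unmarked cells its level was 2.99 and 2.51 CPM in CTRL and 3.00 and 2.69 CPM in BU, with ratios of 1.00 and 1.07.

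*Anxa2*, which encodes the membrane partner of S100A10, had 16.98 and 22.4 CPM in CTRL and 17.4 and 33.0 CPM in BU over all passing cells. Within experiments the ratios were 1.03 and 1.48, and in unmarked cells they were 0.873 and 1.47. In unmarked Gfra1+ cells *Anxa2* was 8.78 and 10.7 CPM in CTRL and 12.98 and 16.1 CPM in BU, where the groups did not overlap and the ratios were 1.48 and 1.498. The paired S100 subunit and annexin therefore had different ratios in the same cells, with 2.92 and 3.57 for *S100a10*; this difference between genes was not tested.

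*Tmsb4x*, the X-linked beta thymosin, had 32.3 CPM in CTRL 1 and in BU 1, and 72.1 and 72.2 CPM in CTRL 2 and BU 2. Its ratio was 1.00 in both experiments, and 25.4% to 64.7% of its UMIs lay in somatic-marked cells, where it reached 1237 to 2094 CPM. In unmarked cells it was 20.9 and 23.2 CPM in CTRL and 23.2 and 34.3 CPM in BU, with ratios of 1.11 and 1.48, and the higher CTRL library lay just below the lower BU library.

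**Figure D2:**
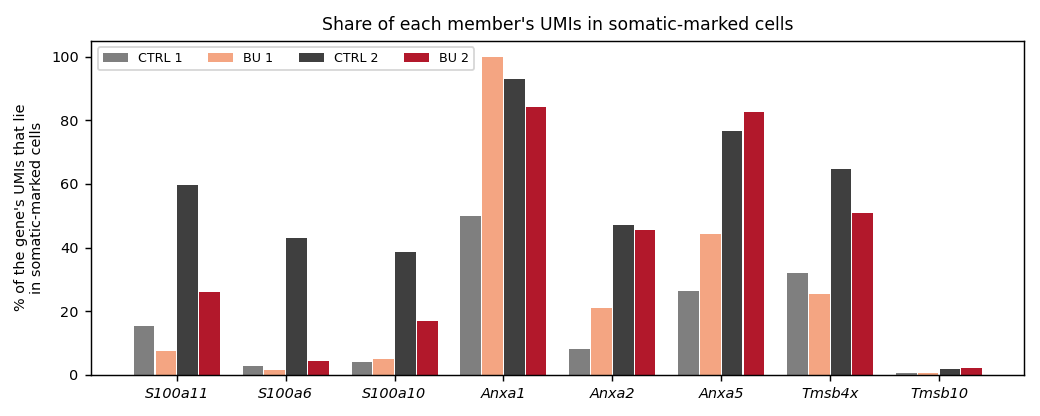
Share of each member's UMIs that lie in somatic-marked cells (y axis, percent) for 8 members (x axis) in the 4 libraries (bars, starting at 0). *Anxa1* has 50% to 100% of its UMIs there, *Tmsb10* 0.594% to 2.18%, and *S100a11* ranges from 7.57% in BU 1 to 59.7% in CTRL 2.

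*Tmsb10*, the other actin-binding thymosin, gave 79.3% to 86.2% of the UMIs of the 9 members in each library. In unmarked cells experiment 1 went from 463 CPM in CTRL to 783.6 CPM in BU, and experiment 2 from 936.5 to 1417 CPM. BU exceeded its CTRL partner 1.69-fold and 1.51-fold, but the libraries of experiment 2 stood above those of experiment 1 and the groups overlapped. The ratio was 1.43 and 1.28 in Gfra1+ cells and 1.84 and 1.69 in Gfra1-negative cells. With the replicate block its log2 difference over all passing cells was 0.65 (SE 0.15, adjusted p = 0.086).

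Somatic-marked cells differed between libraries in number and kind. The steroid enzyme gene *Cyp17a1* was at 4331 CPM in those of CTRL 2 and at 0 in those of CTRL 1, BU 1 and BU 2. *S100a11* was at 341.0, 899.0, 683.0 and 1368 CPM in somatic-marked cells of CTRL 1, BU 1, CTRL 2 and BU 2. CTRL 2 took 59.7% of its *S100a11* UMIs, 43.1% of its *S100a6* UMIs and 38.6% of its *S100a10* UMIs from them. Over all passing cells the BU to CTRL ratios in experiments 1 and 2 were 5.74 and 4.29 for *S100a11*. They were 4.525 and 3.65 for *S100a6* and 2.87 and 3.28 for *S100a10*, and those of unmarked cells are given above. The part of somatic-marked cells in these ratios was not tested.

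**Figure D3:**
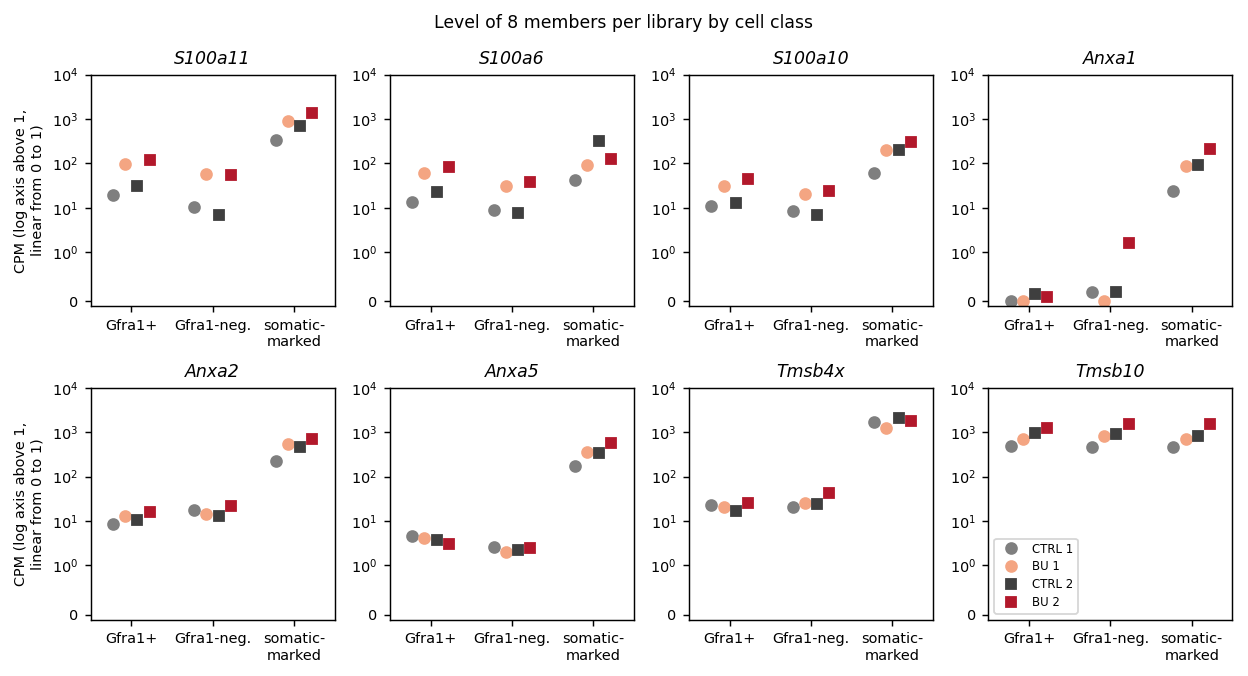
CPM of 8 members (y axis, log scale above 1 and linear from 0 to 1) in unmarked Gfra1+ cells, unmarked Gfra1-negative cells and somatic-marked cells (x axis), with 1 point for each library. For *S100a11*, *S100a6* and *S100a10* both BU libraries lie above both CTRL libraries in the Gfra1+ and Gfra1-negative classes, and all members plotted other than *Tmsb10* are higher in somatic-marked than in Gfra1+ cells of each library.

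Gfra1+ cells were next compared with Gfra1-negative cells of the same libraries, a contrast other than the one that chose the members. It is not wholly independent of that choice, because the Gfra1+ share of cells was higher in BU, so that genes higher in Gfra1+ cells were favoured. Of 15187 genes, 9.88% were called higher and 13.3% lower in Gfra1+ cells (edgeR quasi-likelihood test with library as a block), and 4 of the 8 members tested were called higher and 0 lower. *S100a11* differed by 1.36 on the log2 scale (SE 0.31, adjusted p = 0.033), with a ratio of 2.20, 1.62, 6.43 and 2.14 in CTRL 1, BU 1, CTRL 2 and BU 2. *S100a6* differed by 0.78 (SE 0.15, adjusted p = 0.024) and *S100a10* by 0.67 (SE 0.14, adjusted p = 0.029), each higher in Gfra1+ cells of all 4 libraries. *Anxa5* differed by 0.86 (SE 0.21, adjusted p = 0.040).

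Without marked cells, 9.66% of genes were called higher, and *S100a11* (1.25, SE 0.21, adjusted p = 0.015), *S100a6* (1.11, SE 0.16, adjusted p = 0.011) and *S100a10* (0.72, SE 0.16, adjusted p = 0.029) remained called. *Anxa5* was not called there (0.74, SE 0.22, adjusted p = 0.055). *Anxa2* was at 0.21 (SE 0.25, adjusted p = 0.59) over all passing cells and at -0.42 (SE 0.19, adjusted p = 0.16) without marked cells, where its Gfra1+ level was below its Gfra1-negative level in all 4 libraries. Over all passing cells *Tmsb4x* was at -0.05 (SE 0.12, adjusted p = 0.82), *Tmsb10* at -0.15 (SE 0.08, adjusted p = 0.23) and *Anxa1* at 0.96 (SE 0.38, adjusted p = 0.12). Without marked cells *Tmsb4x* was at -0.34 (SE 0.16, adjusted p = 0.18) and *Tmsb10* at -0.04 (SE 0.09, adjusted p = 0.76).

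Which members were called depended on which library was left out and on how cells were classed. Without CTRL 2 the test called 0 genes and the adjusted p was 0.077 for *S100a11*, 0.095 for *S100a6* and 0.14 for *S100a10*, at log2 differences of 0.96, 0.90 and 0.62. Without BU 2 it called 636 genes and none of the members. Without CTRL 1 it called *S100a6* and *S100a10*, with *S100a11* at an adjusted p of 0.052, and without BU 1 it called *S100a11* and *Anxa5*, with *S100a6* at 0.064 and *S100a10* at 0.066. Without cells with a *Kit* level above 2 only *S100a6* was called among the members (*S100a11* 1.21, adjusted p = 0.075), with any *Gfra1* UMI only *S100a11*, and when cells were classed by a *Gfra1* UMI after thinning to 5000 UMIs only *S100a11* (0.90, adjusted p = 0.048) and *Anxa5* (0.87, adjusted p = 0.039).

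**Figure D4:**
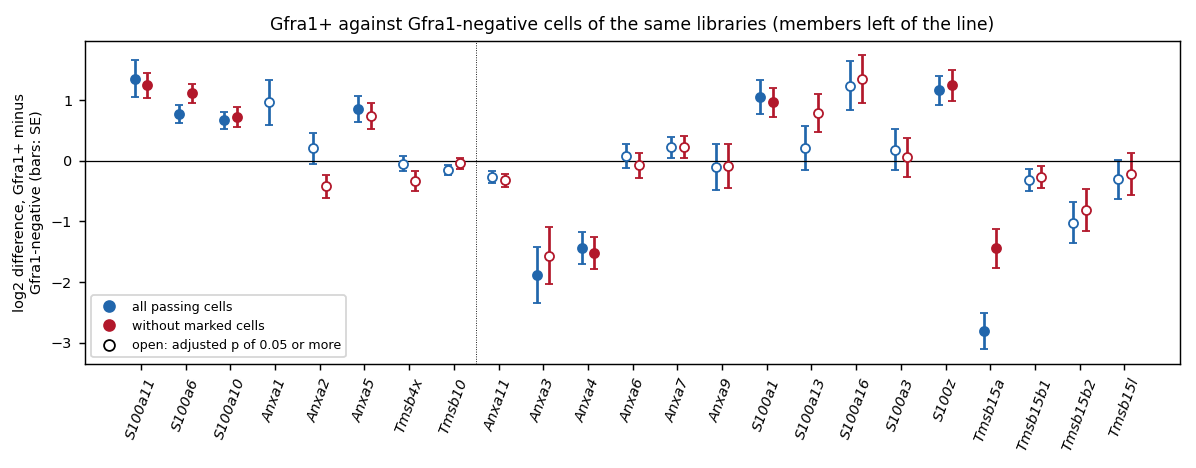
Log2 difference between Gfra1+ and Gfra1-negative cells (y axis, bars are SE) for members and other genes of the 3 families that were tested (x axis), over all passing cells (blue) and without marked cells (red). Filled points have an adjusted p under 0.05, and *S100a11*, *S100a6*, *S100a10*, *S100a1* and *S100z* are filled above 0 in both.

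The BU against CTRL difference in Gfra1+ cells was tested against that in Gfra1-negative cells as an interaction, and 0 of 16753 genes were called (0%), with 810 at an unadjusted p under 0.05 and 0 called by DESeq2. For *S100a11* the Gfra1+ difference was lower by an estimate of -0.92 on the log2 scale (SE 0.53, adjusted p = 0.94). For *S100a6* it was 0.57 (SE 0.18, adjusted p = 0.94), and for *S100a10* 0.25 (SE 0.30, adjusted p = 0.97). Without marked cells the estimates were -0.42 (SE 0.41), 0.13 (SE 0.36) and 0.35 (SE 0.35). The estimates moved with the definition of Gfra1+ cells. With any *Gfra1* UMI they were 1.31 (SE 0.37) for *S100a6* and 0.99 (SE 0.29) for *S100a10*. With a *Gfra1* UMI after thinning they were 0.59 (SE 0.19) and 0.62 (SE 0.21). Under both definitions 0 genes were called. A difference between the classes in the response of these genes was not detectable with these libraries.

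Levels of the S100 genes were also read in other germ cell classes. Progenitor-marked cells, which are unmarked and Gfra1-negative with a UMI of *Sox3*, *Neurog3* or *Rarg*, had 7.002 and 5.76 CPM of *S100a11* in CTRL and 31.8 and 36.5 CPM in BU. Their *S100a6* level was 7.84 and 6.63 CPM in CTRL and 15.9 and 35.9 CPM in BU. Unmarked cells with *Kit*, the receptor of differentiating spermatogonia, above the same threshold of 2 held 36.5 and 48.3 CPM of *S100a11* in BU 1 and BU 2, below the Gfra1+ cells of both libraries. In CTRL this class held 1 and 5 UMIs of *S100a11*.

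At one depth of 5000 UMIs per cell, the share of cells with a UMI of *S100a11*, *S100a6* or *S100a10* in unmarked Gfra1+ cells was 17.4% in CTRL 1 (95% exact binomial interval 14.2–21.0%), 19.3% in CTRL 2 (14.03–25.5%), 47.2% in BU 1 (43.8–50.7%) and 57.3% in BU 2 (52.7–61.7%). Shares in Gfra1-negative cells were 10.2%, 9.09%, 25.9% and 33.8% in the same order. Progenitor-marked cells had 8.02% and 7.52% in CTRL and 14.9% and 16.03% in BU. Cells with at least 3 such UMIs made up 1.17% and 4.57% of Gfra1+ cells in CTRL and 10.2% and 19.02% in BU.

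Spermatid-marked cells, taken as a class that should hold few of these transcripts, gave 4.88% of 41 cells in CTRL 1, 1.12% of 89 in CTRL 2, 0% of 9 in BU 1 and 12.1% of 58 in BU 2, at median depths of 11953, 33604, 15054 and 35406 UMIs before thinning. Gfra1+ cells of the same libraries had medians of 7541, 27218, 10366 and 40226. Intervals of Gfra1+ cells lay above those of spermatid-marked cells in BU 1, CTRL 2 and BU 2 and overlapped them in CTRL 1 (0.596% to 16.5%). Those of Gfra1-negative cells lay above them in CTRL 2 and BU 2 and overlapped in CTRL 1 and BU 1. In BU 1 the 9 spermatid-marked cells gave an interval up to 33.6%, so lower shares could not be set apart there. For progenitor-marked cells the intervals overlapped in all 4 libraries, as for BU 2 with 10.7% to 22.7% against 4.99% to 23.3%, so these shares were not separated from free RNA in the droplets. Intervals cover counting error only, and their overlap is not a test.

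**Figure D5:**
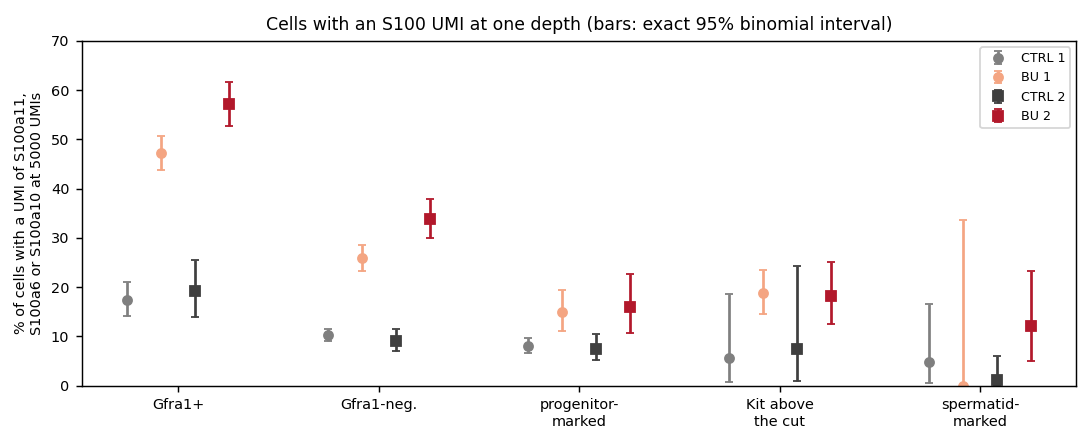
Percent of cells with a UMI of *S100a11*, *S100a6* or *S100a10* after thinning to 5000 UMIs (y axis) by class (x axis) in the 4 libraries, with exact 95% binomial intervals. Gfra1+ cells of BU 1 and BU 2 are at 47.2% and 57.3%, those of CTRL 1 and CTRL 2 at 17.4% and 19.3%.

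The 3 S100 genes were also found in the same cells. Among unmarked cells with an *S100a11* UMI, 12.1%, 28.8%, 15.6% and 34.3% had one of *S100a6* in CTRL 1, BU 1, CTRL 2 and BU 2, against 3.69%, 12.6%, 3.55% and 15.6% of cells without *S100a11*. For *S100a10* the shares were 10.0%, 21.6%, 17.8% and 30.1% with and 3.50%, 6.55%, 3.195% and 9.09% without *S100a11*. Within unmarked Gfra1+ cells *S100a6* was seen in 13.04%, 28.5%, 20% and 35.9% of cells with and 5.15%, 20.2%, 5.09% and 21.2% of cells without *S100a11*.

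Across unmarked cells of a library (890 to 2770 cells at one depth) the correlation of *S100a11* with *S100a6* was 0.137 to 0.242 and with *S100a10* 0.105 to 0.338, and that of *S100a6* with *S100a10* was 0.097 to 0.170. These weak values come from sparse counts of cells that share a library and its free RNA. With *Stra8*, a retinoic acid response gene, *S100a11* had a correlation between -0.169 and -0.030.

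Genes whose pattern across unmarked cells was most like the summed UMIs of the 9 members, ranked among 7337 genes by their mean correlation over the 4 libraries, included *Tubb4b*, *Tuba3b*, *H3f3b*, *Atp5h*, *Tuba3a*, *H2afz*, *Hn1*, *Calm2* and *H1fx*, from 0.26 to 0.18. This sum is mostly *Tmsb10*. For the sum of *S100a11*, *S100a6* and *S100a10*, a subset taken after its values were seen, the leading genes included *Nefm* (0.29), *Ccnd2* (0.24), *Tagln2* (0.23), *Aldoa*, *Pmaip1*, *Epcam*, *Capg*, *Rasl11a* and *Slc25a4* (0.19). The lowest were *Uchl1* (-0.18) and *Sohlh1* (-0.15).

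Gfra1+ cells were split by mitotic markers, with cycling cells holding at least 2 UMIs of 7 mitotic genes after thinning and non-cycling cells holding 0. Over all of them 8.97% of 11058 genes were called lower in cycling cells, among them 4 of the 7 members tested, which were *S100a11* (-1.42, SE 0.34, adjusted p = 0.018), *Anxa2* (-2.64, SE 0.43, adjusted p = 0.0024), *Anxa5* (-3.74, SE 0.61, adjusted p = 0.0025) and *Tmsb4x* (-2.78, SE 0.70, adjusted p = 0.021). Somatic-marked cells made up 2.44%, 1.61%, 13.2% and 35.8% of non-cycling and 0.909%, 0.301%, 0.885% and 0.551% of cycling Gfra1+ cells in CTRL 1, BU 1, CTRL 2 and BU 2.

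Without marked cells none of these 4 calls was left, with *S100a11* at 0.26 (SE 0.13, adjusted p = 0.17), *Anxa2* at 0.14 (SE 0.25, adjusted p = 0.77) and *Tmsb4x* at -0.25 (SE 0.19, adjusted p = 0.41), while *Anxa5* did not pass the filter. With marked cells kept, the calls of *S100a11* and *Tmsb4x* were also lost without CTRL 2 (-0.94, adjusted p = 0.13, and -1.95, adjusted p = 0.20) and without BU 2 (-1.23, adjusted p = 0.066, and -2.04, adjusted p = 0.072). In the fit without marked cells and with all 4 libraries, 8.26% of genes were called higher in cycling cells. Of the 6 members tested there, *S100a6* alone was among them (0.58, SE 0.20, adjusted p = 0.038). With marked cells kept the main fit did not call *S100a6* (0.78, SE 0.37, adjusted p = 0.17). A call of 1 member is too few to set against the share of all genes. *Tmsb10* was at 0.19 (SE 0.07, adjusted p = 0.056).

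Other genes of the 3 families, taken at a mean of at least 1 CPM over the libraries, were not uniform. In unmarked cells *S100a1* was 1.05 and 0.561 CPM in CTRL and 2.90 and 3.31 in BU, *S100a13* was 0.659 and 1.39 CPM in CTRL and 2.95 and 5.59 in BU, and *S100a16* was 0.388 and 0.148 CPM in CTRL and 1.16 and 0.842 in BU. *S100a3* had ratios of 1.37 and 1.65 and *S100z* of 0.927 and 1.93. These levels rest on 5 to 272 UMIs per library for the first 3 genes. *S100a1* and *S100a13* lie next to each other on chromosome 3, and none of the S100 genes that are no members was called in BU against CTRL with the replicate block.

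Among 5 annexins, 3 had ratios under 1 in both experiments. *Anxa6* was 6.51 and 3.52 CPM in CTRL and 1.74 and 1.33 CPM in BU in unmarked cells, where the block log2 difference was -1.70 (SE 0.34, adjusted p = 0.12). *Anxa11*, which tethers RNA granules to lysosomes, was 86.8 and 102.8 CPM in CTRL and 45.8 and 55.4 CPM in BU (-0.96, SE 0.18, adjusted p = 0.12). *Anxa7* had ratios of 0.719 and 0.858, *Anxa4* of 1.01 and 1.54 and *Anxa3* of 0.813 and 1.69. Of 3 further beta thymosins, *Tmsb15b1* had ratios of 1.14 and 1.09, *Tmsb15b2* of 1.45 and 1.47 and *Tmsb15a* of 0.693 and 1.31, and none had groups apart. *Tmsb15b1*, *Tmsb15b2* and *Tmsb15l* overlap on the X chromosome, so their counts are uncertain.

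In the Gfra1+ against Gfra1-negative contrast 9.88% of all genes were called higher and 13.3% lower. The small family counts that follow were not tested against these shares. Of 5 tested S100 genes that are no members, 2 were called higher, *S100a1* (1.05, SE 0.28, adjusted p = 0.044) and *S100z* (1.16, SE 0.24, adjusted p = 0.027). Of 6 annexins, 2 were called lower, *Anxa4* (-1.45, SE 0.26, adjusted p = 0.023) and *Anxa3* (-1.89, SE 0.47, adjusted p = 0.039), the latter not without marked cells (-1.56, adjusted p = 0.057). Of 4 thymosins *Tmsb15a* was called lower (-2.81, SE 0.30, adjusted p = 0.013), at -1.45 without marked cells (adjusted p = 0.029). The median log2 difference was 1.05 for these S100 genes, -0.19 for the annexins and -0.67 for the thymosins, beside 0.01 over all genes tested.

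Genes of actin and the cell cortex, to which annexins, S100 proteins and thymosins all connect, were read from a list of 33. In Gfra1+ against Gfra1-negative cells all 33 were tested, and 13 were called higher and 1 lower, beside 9.88% and 13.3% of all genes, with a median of 0.24 beside 0.01. *Msn*, which links membrane to actin, differed by 1.34 (SE 0.09, adjusted p = 0.013), the actin-binding *Tagln2* by 1.14 (SE 0.10, adjusted p = 0.013) and the filament-capping *Capg* by 1.02 (SE 0.13, adjusted p = 0.016). In BU against CTRL within Gfra1+ cells 0 of 33 were called with or without the block, at a median of 0.15 beside 0.00 for all genes. *Msn* was 36.7 and 33.6 CPM in CTRL and 61.4 and 57.2 CPM in BU, *Arpc1b* 52.8 and 80.7 CPM in CTRL and 91.7 and 120.2 CPM in BU, and *Myl9* 20.8 and 15.8 CPM in CTRL and 8.26 and 14.2 CPM in BU.

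Of 19 partners and companion genes of S100 proteins and annexins, 17 passed the filter over all passing cells. Those that the block called higher in BU included *Plaur*, beside 0.64% of all genes. Without marked cells the block called 0 genes. In Gfra1+ cells, marked cells included, *Lgals1* was 64.1 and 66.6 CPM in CTRL and 130.6 and 138.0 CPM in BU. This gene encodes galectin-1 and had a block log2 difference of 1.04 (edgeR adjusted p = 0.093). The LIM domain gene *Crip2* was 83.6 and 77.5 CPM in CTRL and 36.1 and 58.0 CPM in BU. In unmarked Gfra1+ cells of BU 1 and BU 2 with a *Plaur* UMI (56 and 54 cells), the level of *S100a6* after thinning was 110.7 and 203.7 CPM, against 55.7 and 76.8 CPM in those without. For *S100a11* it was 146.4 and 151.9 against 82.6 and 131.0 CPM. For *S100a10* it was 53.6 and 55.6 against 29.7 and 51.0 CPM. *Anxa2* had 10.7 and 14.8 against 13.7 and 13.3 CPM, and *Tmsb10* 721.4 and 1289 against 717.4 and 1303 CPM. These differences rest on few cells and were not tested.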

How the data were processed

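For 4 libraries the authors deposited raw UMI counts, made with Cell Ranger 3.0.2 and not normalised. The study's methods give mm10 and kit V2 throughout, whereas the submitters' notes give GRCm39 and the labels kit V3.1 for experiment 2. The members and gene lists were chosen with earlier results of these data known.

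UMIs were summed per library and class. Classes of marked, progenitor-marked, Kit-positive and cycling cells followed the marker lists, and thinning drew 5000 UMIs per cell, leaving out 276, 80, 114 and 95 shallower cells in CTRL 1, BU 1, CTRL 2 and BU 2. Sums were tested with edgeR 4.0.16 (filterByExpr, TMM, quasi-likelihood, R 4.3.3) at an adjusted p of 0.05. CPM given for genes of the actin, partner and serum response lists are after TMM, over Gfra1+ cells with marked cells included. CPM of family genes are without TMM. BU was tested with condition as the only term, and cell classes with library as a block. DESeq2 1.42.0 was an alternative. Doublets were kept in the main fits. The own threshold of scrublet in scanpy 1.11.5 marked 16 of 9229 barcodes (0.173%), so the 181 with the highest scores were removed in an alternative. The planned rule for Kit-high cells marked 3 cells in all, and a *Kit* level above 2 was added after seeing the data. Groups were those of the labels. With condition as the only term, p-values measure the spread between pooled libraries, and with the replicate block the spread left after the experiment. With library as a block they measure how the class difference varied between libraries. Levels at the Gfra1+ share of CTRL without marked cells, and similarity to the 3 S100 genes, were also added after seeing the data.

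Labels give experiment numbers with a shared kit and lane, so the numbers pair CTRL with BU. Same-numbered deviations from the group means correlated at 0.784 over all passing cells, 0.665 in Gfra1+ and 0.768 in Gfra1-negative cells, and the block moved the common coefficient of variation from 0.527 to 0.223, from 0.350 to 0.192 and from 0.567 to 0.262. Counts for Gfra1+ cells were simulated with an effect of the experiment (13408 genes, 200 changed by 2 on the log2 scale). The fit with condition only recovered 0% of the changed genes and the block 100.0%. That effect was set in the simulation, so the recovery does not measure one in these libraries. Simulated without it (13457 genes), condition only recovered 100% and the block 99.5%.

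Named genes were the 9 members, other family genes with a mean of at least 1 CPM, for each other list the 3 largest absolute differences at a mean of at least 10 CPM, and the 10 genes most correlated with the summed members. A gene that these rules chose is not reported here. Figures were drawn with matplotlib 3.10.9.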

Additional observations from a re-analysis of the deposited data

How the results depend on the processing

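Counts of genes called in BU against CTRL changed with the design. Over all passing cells 0 became 258 with the replicate block, 301 with the block and no cells with a *Kit* level above 2, 309 with the block and doublets removed, 110 with the block and a mitochondrial share under 10%, and 119 with DESeq2. In Gfra1+ cells 0 became 10, 174, 10 and 101 under the same 4 blocked settings, 15 with DESeq2 and 49 with no filter on low counts. In Gfra1-negative cells DESeq2 called 59. Leaving out 1 library gave 0 to 96, 0 to 25 and 0 to 32 calls, from fits where the lone sample was assumed to vary like the other group. The replicate block changed calls of members over all passing cells (*S100a11*, *S100a6*, *S100a10*) and in Gfra1+ cells (*S100a6*), and none in Gfra1-negative cells.

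Between Gfra1+ and Gfra1-negative cells 3514 calls became 0 with no replicate block, 991 with cells classed by a thinned UMI, and 0 to 3253 with 1 library left out (0 without CTRL 2, 636 without BU 2). In the interaction 3 genes were called without cells that share a barcode, and 0 with any library left out. Between cycling and non-cycling cells 2030 became 340 with no replicate block, 1352 with DESeq2, 3693 with no filter, 739 without shared barcodes, 3519 with any *Gfra1* UMI, 536 with a thinned UMI, and 690 to 1892 with 1 library left out. The causes were not tested.

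Signs of some members turned. In the class contrast *Anxa2* was -0.42 without marked cells, -0.0463 with any UMI, -0.00715 with a thinned UMI and -0.0808 to 0.46 with 1 library left out. *Tmsb4x* was 0.00052 with no filter, 0.0399 under 10% mitochondrial UMIs, 0.13 without shared barcodes and -0.17 to 0.0859 with 1 library left out. In the interaction *S100a10* was -0.16 without cells with a *Kit* level above 2 and -0.0595 to 0.56 with 1 library left out, *Anxa1* 0.0458 without shared barcodes and 0.21 with any UMI, *Anxa2* 0.55 without marked cells, 0.45 without shared barcodes, 0.14 with any UMI, 0.66 with a thinned UMI and -0.92 to 0.67 with 1 library left out, *Anxa5* 0.0930 without marked cells, and *Tmsb4x* 0.12 without shared barcodes and 0.26 with a thinned UMI. In cycling cells *S100a11*, *S100a10* and *Anxa2* turned from -1.42, -0.77 and -2.64 to 0.26, 0.23 and 0.14 without marked cells. Alternatives on shared barcodes and *Kit* levels were chosen after seeing the data. Depth limits *S100a4*, with 0 to 8 UMIs per library, and *Anxa1* in unmarked cells, with 0 to 42.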

Other observations

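A list of 19 serum response and YAP target genes, many of them immediate early genes, was read in the same sums. Between Gfra1+ and Gfra1-negative cells 6 of 18 tested were called higher and 2 lower, beside 9.88% and 13.3% of all genes, with a median log2 difference of 0.63 beside 0.01 over all genes tested. *Ier3* differed by 1.39 (SE 0.34, edgeR adjusted p = 0.039), *Fos* by 1.39 (SE 0.30, adjusted p = 0.029) and *Ier2* by 1.11 (SE 0.16, adjusted p = 0.018). Without marked cells 6 of 16 were called higher and 0 lower. In BU against CTRL within Gfra1+ cells 0 of 15 were called with or without the replicate block. *Junb* was 3.98 and 13.01 CPM in CTRL and 12.9 and 21.4 CPM in BU, *Ier2* was 49.7 and 36.7 CPM in CTRL and 85.5 and 67.5 CPM in BU, and *Jun* was 11.5 and 19.2 CPM in CTRL and 23.7 and 27.5 CPM in BU.

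Of 16 tested partners of S100 proteins and annexins, 3 were called higher and 2 lower in Gfra1+ cells, beside 9.88% and 13.3% of all genes, a count too near these shares to read as a result about the partners. Those lower were *Crip2* (-0.88, SE 0.23, adjusted p = 0.045) and *Calm3* (-0.59, SE 0.15, adjusted p = 0.042), and *Serpine2* was at -0.94 (SE 0.27, adjusted p = 0.055).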
